A study of Mus musculus with 8 samples.

Results

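Of the 567 mouse miRNA entries of an Agilent microarray, 7 form the group described here. The group is a chosen list and not a count of all doubtful entries. Later work withdrew or doubted its 7 members because their sequences match other noncoding RNAs or lack good support as miRNAs. They are mmu-miR-801, mmu-miR-720, mmu-miR-709, mmu-miR-690, mmu-miR-689, mmu-miR-685 and mmu-miR-805. They were chosen by name, with their intensity, their detection flag and their difference between control and diabetic arrays already known, so those values are given below as a description and not as a test. The RNA came from mouse skeletal muscle, and there were 4 arrays labelled control and 4 labelled diabetic. The series describes obese diabetic C57BL/KsJ db/db mice, which lack a working leptin receptor, and normal C57BL/KsJ db+ mice. The strain entry of each sample names the opposite genotype (db/db for control, db+ for diabetic), so the directions below follow each sample's title, its description and its group entry. The labels used here give no age, muscle or number of animals per array. Where arrays are replicates, nothing says that they came from separate animals, so the spread between them may be technical.

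A miRNA is a short RNA that is cut from a hairpin precursor and that guides repression of mRNAs through its seed, the bases near its 5′ end. Small RNA catalogues also took in pieces of longer, abundant RNAs. U11 is such an RNA: a small nuclear RNA of the minor spliceosome, which recognises the 5′ splice site of a rare class of introns. Transfer RNAs, which carry amino acids to the ribosome, are another, and miR-720 has been reported to be a fragment of a threonine transfer RNA. An array probe responds to labelled RNA that binds it. A probe named for one of these entries may thus read the short RNA, longer RNAs that hold the same bases, or both. Which of them gave the signal was not tested.

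The RefSeq gene table of assembly GRCm38.p6 names 3 of the 7. It gives mmu-miR-801 as an older name of Rnu11, the U11 small nuclear RNA gene, with a transcript of 108 bases, and it lists Mir709 and Mir690 as miRNA genes. The label of the group is thus borne out for miR-801 by this table, while miR-709 and miR-690 stand in it as miRNA genes. The RefSeq miRNA table of the same build holds a mature sequence for mmu-miR-690 alone. It is shown because it lets the seed be compared with those of other mouse miRNAs. It lies at chr16:28599940-28599961 on the minus strand, with the seed (bases 2 to 8) in capitals in the first line. In the second line, the hairpin of 109 bases, the mature sequence is in capitals and fills bases 83 to 104.

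mmu-miR-690: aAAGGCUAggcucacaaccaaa

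Mir690 hairpin: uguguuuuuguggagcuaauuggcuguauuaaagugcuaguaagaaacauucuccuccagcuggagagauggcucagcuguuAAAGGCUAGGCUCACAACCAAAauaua

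The mature sequence has 22 bases and a GC content of 45.5%, and no other of the 1679 mature names in the table has the same seed.

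Each array gave intensities for 1672 probes of mouse entries. A probe counts as detected if 50% or more of its spots on that array were well above background, and an entry if any of its probes did. Detected entries numbered 112 to 147 on the control and 102 to 131 on the diabetic arrays. The 75th percentile of intensity, by which each array was divided, was 8.27 to 9.27 on the log2 scale on the control and 7.78 to 8.91 on the diabetic arrays. A scaled level below is the log2 of the divided intensity, raised to a floor of −5.95 where it was lower. The muscle miRNAs miR-1, miR-133a, miR-133b and miR-206 were detected on all 8 arrays. All 8 arrays lay on 1 slide, the control samples in row 1 and the diabetic samples in row 2, so the effects of slide row and of diabetes cannot be told apart.

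Of the 7 entries, 4 were detected on at least 4 arrays and entered the fit of 126 miRNAs. All 4 had a lower mean on the diabetic arrays under the scaling used here, although the differences of miR-720 and miR-689 turned positive when arrays were scaled by all mouse probes. The 4 were miR-801, miR-709, miR-720 and miR-689. Of all 126 tested miRNAs, 54.0% had a negative difference. The median difference was −0.48 over the 4 and −0.06 over the 126. At a Benjamini-Hochberg adjusted p of 0.05 limma called 0 of the 4, and 2 of the 4, miR-801 and miR-709, had an unadjusted p under 0.05, as did 21 of the 126 (16.7%). Over all 126, limma called 6 (4.76%) at the adjusted threshold, all of them higher on the diabetic arrays. Since this contrast was known when the entries were chosen, nothing is read from their count. Scaling by all mouse probes gave 8 higher and 1 lower, which was miR-801. In that setting all 4 entries had the same SE, 0.36, so the call did not use the spread of miR-801 itself. Scaling by a median gave 5 higher and 2 lower. Normexp background correction gave 5 higher and 3 lower, with miR-801 among the lower. The SEs of the 4 entries there lay between 0.228 and 0.231, so that call too made little use of the spread of miR-801 itself. In bulk muscle, fewer cells that hold an RNA and less of it per cell cannot be told apart.

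**Figure D1:**
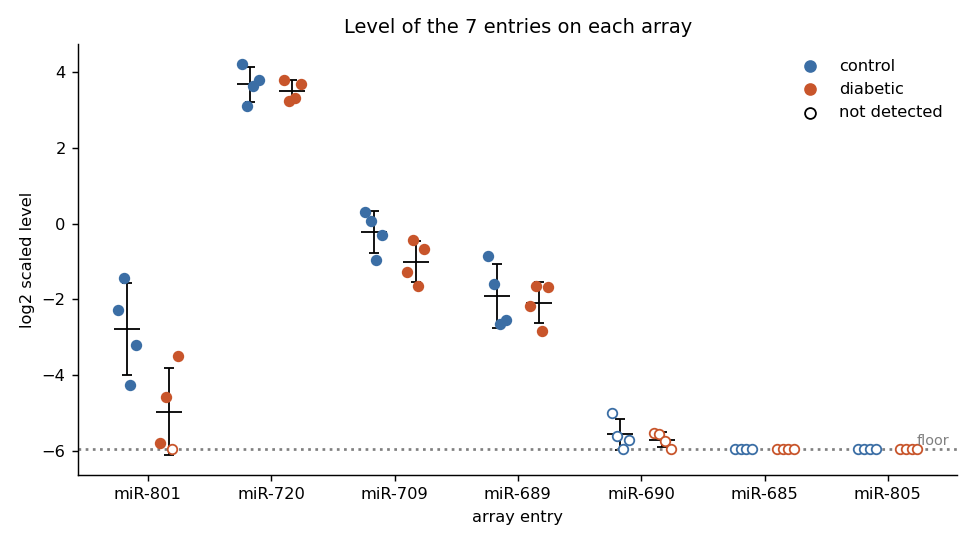
Log2 scaled level (vertical axis) of the 7 entries (horizontal axis) on each of the 4 control and 4 diabetic arrays, with the mean and SD as bars, open points where the entry was not detected and a dotted line at the floor of −5.95. The levels of miR-801 run from −4.25 to −1.43 on the control and from −5.95 to −3.49 on the diabetic arrays, while miR-685 and miR-805 lie at the floor on every array; heights of different entries come from different probes and are not comparable.

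miR-801, the U11 entry, had the largest difference of the 4. Its mean processed intensity over 2 probes, before scaling, was 63.5, 230.1, 17.6 and 35.6 on control arrays 1 to 4. On diabetic arrays 1 to 4 it was 6.49, 20.03, 4.05 and 19.5. The diabetic arrays were thus low, but the groups overlapped, since diabetic 2 and diabetic 4 lay above control 3. The scaled levels were −2.28, −1.43, −4.25 and −3.20 on the control arrays. On the diabetic arrays they were −5.79, −4.58, −5.95 and −3.49. On this scale diabetic 4 alone lay above the lowest control array, and diabetic 3 lay at the floor and was not detected. The means were −2.79 ± 1.21 and −4.95 ± 1.15 (SD, n = 4 each), and the log2 difference was −2.17 (SE 0.63, 95% interval −3.55 to −0.78). This was the lowest of the 126 differences. The contrast was known when the entry was chosen, so this rank and the intervals here and below are a description and no test. The size of the difference is uncertain because of the value at the floor and because diabetic 1 was also close to background. The mean of 6.49 there was below the 95th percentile of the negative control spots, 8.12, although probe A_54_P2205 alone read 13.9. Averaged over its 2 probes, the entry exceeded that percentile on 6 of 8 arrays. On diabetic 3, A_54_P2205 alone read 10.4, above the percentile of 9.24 there, but was not detected. The log2 difference was −1.88 with a higher floor and −0.72 with normexp, whose offset shrinks the differences of dim entries. None of the 20 alternative settings in which it was tested turned its sign.

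The signal of miR-801 came from 1 of its 2 probes. Probe A_54_P2205 read 118, 433, 37.3 and 68.5 on the control and 13.9, 39.5, 10.4 and 38.1 on the diabetic arrays. It was detected on 4 control and 3 diabetic arrays. Its spots on one array differed little beside the gap between arrays: the median coefficient of variation of its spots was 12.5%. Probe A_54_P2203 was detected on control 2 alone, where it read 27.1, and on the other arrays it read −2.30 to 9.53. A_54_P2205 had 0 values at the floor and a log2 difference of −2.20. Of A_54_P2203, 6 of the 8 values lay at the floor, so its difference of −0.59 has no clear size.

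**Figure D2:**
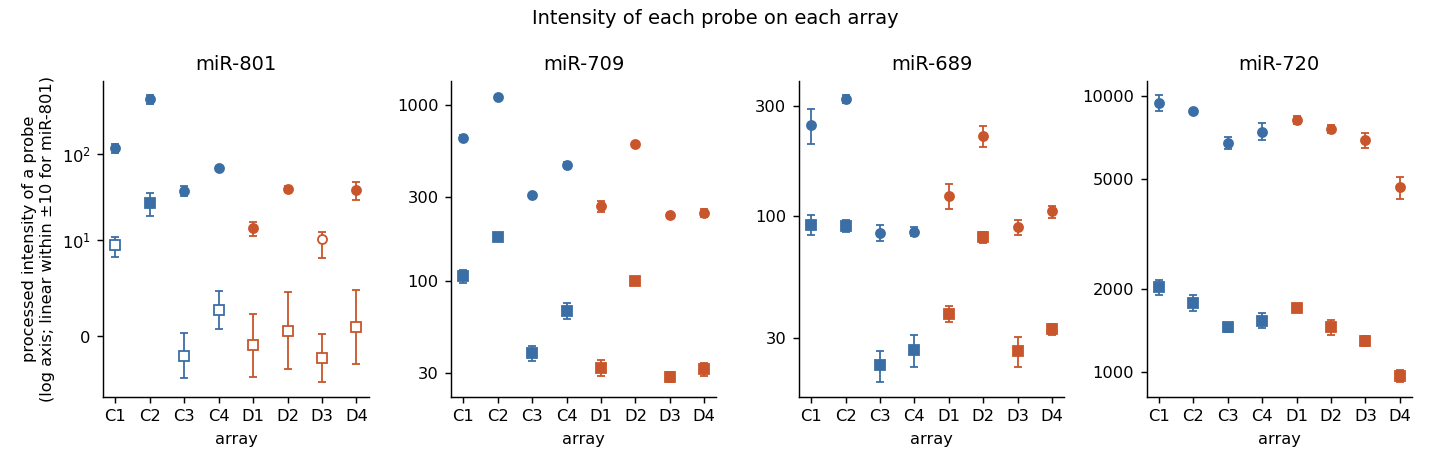
Processed intensity (vertical axis, log, linear within ±10 for miR-801) of the 2 probes (circles and squares) of 4 entries on control arrays C1 to C4 and diabetic arrays D1 to D4, with the SD over spots as bars and open symbols where a probe was not detected. Both probes of miR-709, miR-689 and miR-720 move alike over the arrays, while the weaker probe of miR-801 is filled on C2 alone.

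miR-709, which RefSeq keeps as a miRNA gene and which has been described as abundant in the nucleus, was detected on all 8 arrays. Its intensity was 381, 649, 174 and 263 on control arrays 1 to 4. On diabetic arrays 1 to 4 it was 149, 353, 132.5 and 138. Diabetic 2 stood above the other diabetic arrays and within the control range, so the groups overlapped. On the scaled level control 3, at −0.95, lay below diabetic 2 at −0.44 and diabetic 4 at −0.67. The other control arrays lay between −0.31 and 0.31, above all 4 diabetic arrays, of which diabetic 3 was lowest at −1.64. The means were −0.22 ± 0.55 and −1.01 ± 0.55 (SD, n = 4 each), with a log2 difference of −0.78 (SE 0.33, 95% interval −1.51 to −0.059). Both probes gave a like difference, −0.92 for A_54_P2098 and −0.77 for A_54_P2099. Their log2 ratio on an array ran from 2.60 to 3.07. Leaving out arrays in turn moved the difference of miR-709 between −1.03, without control 3, and −0.57, without diabetic 3.

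miR-720, the transfer RNA entry, was detected on all 8 arrays. Its intensity was 5716, 5288, 4108 and 4476 on control arrays 1 to 4, and 4934, 4517, 4095 and 2817 on diabetic arrays 1 to 4. Diabetic 1 and diabetic 2 lay inside the control range, diabetic 3 just below it, and diabetic 4, the dimmest array by its 75th percentile, furthest below. Scaling turned this order round in part. The highest scaled level was 4.21, on control 1, and the lowest was 3.10, on control 2, the brightest array. The diabetic arrays lay between 3.24 and 3.78, inside the control range. The means were 3.68 ± 0.46 and 3.50 ± 0.27 (SD, n = 4 each), and the log2 difference was −0.17 (SE 0.26, 95% interval −0.75 to 0.40). Its sign was not settled. Leaving out control 1 gave 0.0073, leaving out control 2 gave −0.37, and scaling by all mouse probes gave 0.15. The probes agreed, with differences of −0.24 and −0.16 and a log2 ratio between them of 2.21 to 2.40.

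miR-689 was also detected on all 8 arrays, with arrays of high and low intensity in both groups. Its intensity was 169 and 205 on control 1 and control 2 but 53.9 and 56.2 on control 3 and control 4. On the diabetic arrays it was 80.3, 152, 58.0 and 68.7, which lies inside the control range. The scaled means were −1.91 ± 0.84 and −2.08 ± 0.55 (SD, n = 4 each), with a log2 difference of −0.17 (SE 0.40, 95% interval −1.06 to 0.71). Leaving out control 1 turned the difference to 0.18, leaving out diabetic 3 to 0.08, and scaling by all mouse probes to 0.15. Its probes gave differences of −0.19 and −0.13.

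For none of the 4 entries were the groups free of overlap, a separation that 11 of the 126 tested miRNAs had (8.73%). The spread within groups was wide for 3 of them. Pooled over both groups, the SD of the scaled level was 1.18 for miR-801, the largest of the 126. It was 0.71 for miR-689, the 12th largest, 0.55 for miR-709, the 26th, and 0.38 for miR-720, the 51st. The median over the 126 was 0.34.

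The other 3 entries were detected on 0 of 8 arrays and were not tested. miR-690, a miRNA reported in macrophage vesicles that act on insulin sensitivity, came nearest. Its intensity was 9.72, 12.9, 2.67 and 6.31 on control arrays 1 to 4 and 7.79, 10.25, 7.74 and 3.29 on diabetic arrays 1 to 4. It exceeded the mean of the negative control spots on 7 of 8 arrays and their 95th percentile on 3, control 1, control 2 and diabetic 2. At most 5.88% of its spots on any array were well above background. miR-685, with 4 probes, read −4.17 to 0.30, and miR-805, also with 4 probes, read −5.11 to −2.46. Averaged over their probes, both lay below the mean of the negative control spots, which was 2.21 to 4.21, on all 8 arrays. Of the single probes of miR-685, A_54_P1960 read 10.51 on diabetic 2, above the 95th percentile of the negative control spots there, 8.33, but was not detected. Each entry had 20 spots per array, so signal was not detectable for these entries at this precision, which is not a proof that the RNAs are absent.

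Across the 8 arrays, miR-801, miR-709 and miR-689 had scaled levels that correlated. The Pearson correlation of scaled levels was 0.92 between miR-801 and miR-709, 0.77 between miR-709 and miR-689 and 0.62 between miR-801 and miR-689. With group means removed it was 0.85, 0.90 and 0.76. Without the 2 arrays farthest from the median of the first entry it was 0.88, 0.43 and 0.47, so the values of miR-689 were lower without those arrays. Leaving them out narrows the range of the first entry, which can by itself lower a correlation. Whether the likeness of miR-689 rests on them thus cannot be told. Between miR-720 and the other 3 the correlation was lower over all 8 arrays, at 0.10 with miR-801, 0.23 with miR-709 and 0.30 with miR-689. Without the 2 farthest arrays these values were 0.56, 0.18 and −0.067, so the first of them was higher and the last lower. These values describe arrays that share a slide and a scaling, and the pairs were not tested.

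Among the tested miRNAs outside this group, miR-223, a miRNA of myeloid cells, had the pattern most like that of miR-801, with a Pearson correlation of 0.94 over the 8 arrays, 0.95 with group means removed and 0.89 without the 2 farthest arrays. Next were miR-15b (0.90) and miR-140* (0.89). miR-223 was also first for miR-709 (0.80), followed by miR-652 (0.76) and miR-342-3p (0.73). With group means removed these 3 were 0.70, 0.58 and 0.47, and without the 2 farthest arrays 0.78, 0.62 and 0.38. The scaled levels of miR-223 were −0.82, 0.79, −2.07 and −1.80 on control arrays 1 to 4 and −2.85, −2.20, −3.11 and −0.88 on diabetic arrays 1 to 4. Control 2 was thus the highest array for both miR-223 and miR-801, and diabetic 3 the lowest. The closest to miR-720 were miR-212 (0.96), let-7a (0.94) and miR-378* (0.94), and those to miR-689 were miR-1224 (0.79), miR-494 (0.75) and miR-671-5p (0.71). Each was taken as the highest over all of those miRNAs, so a high correlation is partly the result of that choice. The scaled level of miR-720 also had a correlation of −0.72 with the log2 75th percentile by which arrays were divided. For miR-801, miR-709 and miR-689 this value was 0.11, 0.11 and −0.025. The part of the scaling in the likenesses of miR-720 was not tested.

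**Figure D3:**
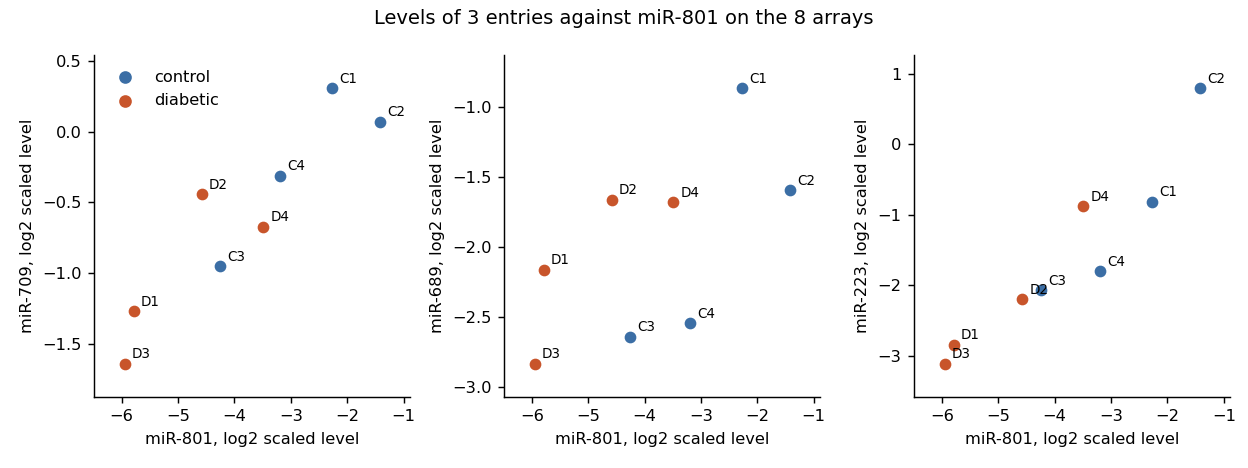
Log2 scaled level of miR-709, miR-689 and miR-223 (vertical axes) against that of miR-801 (horizontal axis) on the 8 arrays, labelled C1 to C4 for control and D1 to D4 for diabetic. D3 is lowest for all 4 entries, and the points of miR-709 and miR-223 rise with miR-801 (Pearson correlation 0.92 and 0.94 over 8 arrays).

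miR-223 is 1 of 4 leukocyte markers on the list used here, with miR-142-3p, miR-142-5p and miR-155. All 4 were detected on at least 1 array, and 1, miR-223, on all 8. Their mean log2 differences were −1.29 for miR-223, −1.06 for miR-142-3p, −0.40 for miR-142-5p and −0.20 for miR-155. miR-142-3p was detected on 3 control and 0 diabetic arrays, and miR-142-5p on 1 and 0. With 7 of its 8 values at the floor, the difference of miR-142-5p has no clear size. The log2 of the summed scaled level of the list was −1.72 to 0.99 on the control and −2.63 to −0.71 on the diabetic arrays, and its correlation with miR-801 was 0.94. That sum is mostly miR-223, already picked for its likeness to miR-801, so this value largely repeats that choice. The correlation of the sum with miR-801 was 0.39 for the erythroid, −0.31 for the muscle and −0.12 for the liver list. The erythroid markers miR-451 and miR-144 summed to −0.23 to 1.28 on the control and −0.54 to 0.60 on the diabetic arrays. The 4 muscle miRNAs summed to 5.72 to 6.69 and 6.28 to 6.74. Within that list the mean log2 difference was −1.33 for miR-206, and 0.34, 0.09 and 0.11 for miR-1, miR-133a and miR-133b. The liver miRNA of the list was detected on 2 control and 3 diabetic arrays, with means of −4.92 and −4.84. The part of these cell types in the values of miR-801 and miR-709 was not tested.

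The entries were set beside 41 others of the array with nearby catalogue numbers. Of these, 38 were detected on 0 arrays, 2 on fewer than 4, and 1, miR-714, on 3 arrays of each group. miR-714 had 6 of 8 values at the floor, so its log2 difference of −0.76 has no clear size.

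**Figure D4:**
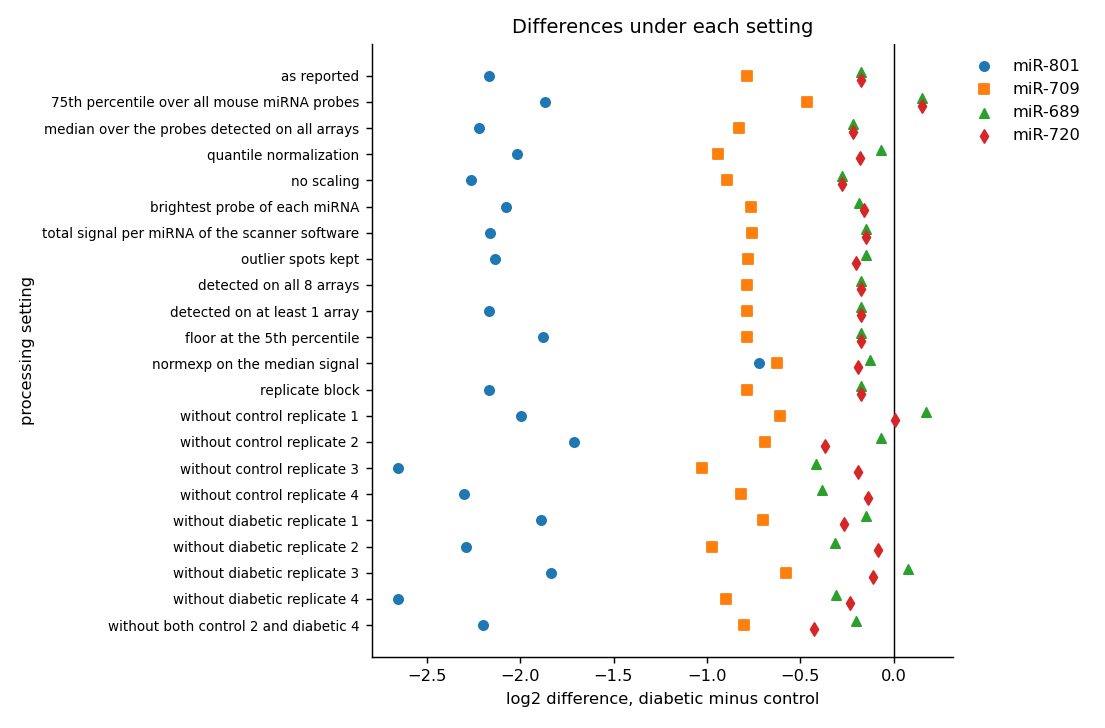
Log2 difference, diabetic minus control (horizontal axis), of miR-801, miR-709, miR-689 and miR-720 under each processing setting (vertical axis). The differences of miR-801 and miR-709 are below 0 in every setting drawn, while those of miR-689 and miR-720 lie on both sides of 0.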

How the data were processed

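Muscle RNA, 100 ng per array, carried a Cy3 label and was read on 1-colour Agilent arrays. Per the file headers, the deposited spot intensities were read with Feature Extraction 10.5 from a design naming mm9, with background subtracted and no normalization between arrays. Deposited 0 or 1 flags mark outlier spots, saturation and detection. Of 12493 spots, 11340 belonged to mouse entries. Outlier spots were dropped, spots averaged per probe, arrays divided by the 75th percentile of the 152 probes that every array detected, probes averaged per entry on the linear scale, raised to the 1st percentile of detected levels and converted to log2. No spot of the 7 entries was saturated. Entries detected on at least 4 of 8 arrays were compared by limma 3.58.1 (R 4.3.3), with group as the term and Benjamini-Hochberg adjustment. The step was also run on simulated independent normal values, with spreads taken from these arrays. That run had no floor, shared scaling or slide rows, so it does not bear on those limits. Array number limits the precision. The members, the lists and the alternatives were chosen with earlier results of these data known. Named miRNAs are the 7 entries, the 3 tested miRNAs most like each tested entry, detected neighbours by number, and marker lists. Normexp had been planned on the mean signal, which the files read here do not hold; it was run on the median signal as an added alternative. Sequences came from RefSeq tables (GRCm38.p6), which matched a mature sequence for 1 of 7 entries.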

Additional observations from a re-analysis of the deposited data

Results flagged for a closer look

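The unscaled intensity of miR-709 on diabetic 2 was 353, against 132.5 to 149 on the other diabetic arrays, and the gap to the nearest of them was 0.926 of the range of the group. It lay far enough from the others to pass Dixon's test, which chance passes in about 1 of 20 groups; 16 groups of values were examined. On the scaled level the same array, at −0.44, did not pass.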

How the results depend on the processing

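The log2 difference of miR-801 was negative in 20 of 20 alternatives (−2.65 to −0.72), and it was past the limma threshold in 6. These counts describe the processing and are no test of the difference. The alternatives reuse the same 8 arrays, and the contrast was known when the entry was chosen. With detection required on all 8 arrays miR-801 was not tested, because it was not detected on diabetic 3. The difference of miR-709 was negative in 21 of 21 (−1.03 to −0.46) and passed in 0. Those of miR-720 (−0.43 to 0.15) and miR-689 (−0.42 to 0.18) were positive in 2 and 3 of 21 and passed in 0. Over all tested miRNAs limma called 6. It called 0 without scaling (19 at an unadjusted p under 0.05), 10 with the brightest probe of each miRNA, 2 with detection on at least 1 array and 3 without both control 2 and diabetic 4, an alternative chosen after seeing the data, as was normexp on the median signal. Leaving out arrays in turn gave 2 to 10 calls. The cause of these changes was not tested. Scaling by all mouse probes moved the median difference of the tested miRNAs from −0.06 to 0.26. Replicate numbers equal slide columns. The deviations of same-numbered arrays correlated at 0.21, 0.082, 0.51 and −0.29, and those of arrays with different numbers at −0.55 to 0.32. Whether the numbers, and so the slide columns, pair the arrays was not tested. With a replicate block limma called 10, miR-801 among them at the same difference of −2.17. Its SE was 0.40 with the block and 0.63 without it.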
